A study of Rattus norvegicus with 10 samples.

Results

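The nuclear genes that encode the respiratory chain and ATP synthase were followed across 10 RNA libraries of primary rat oligodendrocyte lineage cells. Members were all genes whose symbol begins with Nduf followed by a, b, c, s or v, with Uqcr, with Cox followed by a digit from 4 to 8, or with Atp5, together with Sdha, Sdhb, Sdhc and Sdhd. The rule used names alone and no measured value. It found 94 gene IDs among the 16129 that carry a name entry, out of 23487 genes counted. They comprised 38 IDs of complex I, 8 of its assembly factors, 4 of complex II, 9 of complex III, 14 of complex IV, 17 of ATP synthase (complex V), the ATP synthase inhibitor Atp5if1 and 3 paralogs (Cox7a2l, Cox7a2l2 and Ndufa4l2). The assembly factors entered because their symbols begin with Ndufa, and they are no subunits. The 94 IDs carried 88 symbols, since Atp5md, Cox6b1, Ndufa1, Ndufs5, Ndufv3 and Uqcrb each named 2 IDs. Of those 12 IDs, 4 pair with a pseudogene in RefSeq and 3 pair with no RefSeq gene, so reads may be split between near-identical copies and their values are uncertain. Of the 94, 91 averaged at least 1 CPM (counts scaled to a fixed library total). The low members were Cox4i2, Cox6a2 and Ndufa4l2.

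The cells came from cortices of Sprague-Dawley rat pups at P1-P3, from which oligodendrocyte progenitor cells (OPCs) were shaken off mixed glial cultures. OPCs kept with FGF2 and PDGFAA received an inhibitor of miR-145-5p (OPC anti-miR-145) or a scrambled inhibitor (OPC anti-miR-ctl) and were collected 24 h later. Oligodendrocytes (OLs), differentiated with T3 and CNTF, received a miR-145-5p mimic (OL miR-145), miR-145-5p and miR-219 mimics together (OL miR-145+miR-219) or a scrambled mimic (OL miR-ctl) and were collected after 5 days. All small RNAs were transfected at 30 nM, and each group had 2 libraries. A treatment tag on the OL miR-145 libraries also names miR-219, whereas their titles name miR-145 alone and were followed. The methods paragraph on sequencing names lentiviral delivery, whereas the paper's results text and the protocols in the labels name mimics. The general statement on replication defines a replicate of primary culture as the enriched cells of 1 animal, although it speaks of mice and these cells came from rats. The labels tie no library to an animal or litter, so p-values measure the spread between these libraries. The cultures are mixed: markers of maturing OLs, progenitors, astrocytes and microglia were detected in every library.

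The respiratory chain passes electrons from NADH (complex I) and succinate (complex II) through ubiquinone, complex III, cytochrome c and complex IV to oxygen, and ATP synthase uses the proton gradient that complexes I, III and IV build. Complex II is encoded wholly in the nucleus, whereas the other complexes combine nuclear subunits with subunits encoded in mitochondrial DNA, so that both genomes must be expressed to build them. Progenitors that differentiate into OLs make large amounts of membrane lipid and protein, a process with a high demand for ATP and carbon precursors.

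Counts assigned to genes summed to between 33505668 and 42684176 per library. Levels are CPM after TMM scaling over the 10 libraries, a scaling that assumes most genes do not change. Differences are log2 fold changes from edgeR's quasi-likelihood test on the 4 libraries compared, given ± SE, and calls were made where p, adjusted by Benjamini-Hochberg over all genes tested, was under 0.05. An exact permutation test of 2 libraries against 2 cannot give a p below 0.333, so non-overlap of groups is given as a count beside the share of all genes that did the same. In bulk RNA a lower level in each cell cannot be told apart from fewer cells of the type that carries it. Mature miRNA was not measured in these poly(A) libraries, so delivery of the mimics and inhibitors could not be checked on them.

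The mimic copies mature miR-145-5p, shown because it is the sequence added in OLs and blocked in OPCs. RefSeq places the rat miRNA on the minus strand of GRCr8 at chr18:57370033-57370055, and capitals mark its seed, bases 2 to 8.
rno-miR-145-5p: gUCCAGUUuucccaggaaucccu

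Promoters from RefSeq (GRCr8, 250 bases before to 50 after the annotated start) were matched to 76 of the 94 members. They were searched on both strands, overlaps allowed, for GCATGCGC, the central letters of the site bound by NRF1, and for CCGGAAG, the core bound by the ETS factor GABPA. Both factors are known regulators of nuclear respiratory genes. GCATGCGC was found in 10 of the 76 member promoters (13.2%) and in 2.66% of all 27457 promoters of that length. CCGGAAG was found in 21 (27.6%) and in 9.22% of all promoters. A match describes letters and not occupancy. The 4 complex II genes are shown because every one of them was called in OL against OPC controls. Ndufs8 and Ndufa5 are shown because each was called in 2 comparisons, Ndufs8 higher in both and Ndufa5 lower in both. Sdha lies at chr1:30764303-30764602 on the plus strand, Sdhb at chr5:158547684-158547983 on the plus strand, Sdhc at chr13:86097976-86098275 on the minus strand, Sdhd at chr8:59850592-59850891 on the minus strand, Ndufs8 at chr1:210573649-210573948 on the minus strand and Ndufa5 at chr4:53971186-53971485 on the minus strand. Capitals mark matches to either motif.
Sdha: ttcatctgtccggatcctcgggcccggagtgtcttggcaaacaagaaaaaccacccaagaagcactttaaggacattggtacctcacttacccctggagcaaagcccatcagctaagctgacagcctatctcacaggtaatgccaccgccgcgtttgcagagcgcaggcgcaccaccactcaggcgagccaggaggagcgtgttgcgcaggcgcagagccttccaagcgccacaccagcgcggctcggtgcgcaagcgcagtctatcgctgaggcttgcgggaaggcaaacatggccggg
Sdhb: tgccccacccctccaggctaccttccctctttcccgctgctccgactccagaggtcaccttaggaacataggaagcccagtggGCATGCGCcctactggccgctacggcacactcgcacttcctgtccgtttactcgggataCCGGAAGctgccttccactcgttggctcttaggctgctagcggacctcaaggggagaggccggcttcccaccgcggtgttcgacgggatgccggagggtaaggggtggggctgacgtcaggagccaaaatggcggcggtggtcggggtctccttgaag
Sdhc: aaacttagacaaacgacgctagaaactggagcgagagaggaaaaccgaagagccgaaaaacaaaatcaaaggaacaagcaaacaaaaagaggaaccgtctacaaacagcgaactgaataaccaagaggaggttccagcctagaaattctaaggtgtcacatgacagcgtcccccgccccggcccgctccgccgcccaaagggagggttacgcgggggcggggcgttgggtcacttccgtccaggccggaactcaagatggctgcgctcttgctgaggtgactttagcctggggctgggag
Sdhd: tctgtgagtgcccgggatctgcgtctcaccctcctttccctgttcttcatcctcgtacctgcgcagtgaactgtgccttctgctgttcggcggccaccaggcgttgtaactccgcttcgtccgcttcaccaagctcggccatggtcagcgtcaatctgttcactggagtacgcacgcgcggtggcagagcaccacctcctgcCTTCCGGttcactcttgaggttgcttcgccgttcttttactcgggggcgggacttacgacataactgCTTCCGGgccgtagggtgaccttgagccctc
Ndufs8: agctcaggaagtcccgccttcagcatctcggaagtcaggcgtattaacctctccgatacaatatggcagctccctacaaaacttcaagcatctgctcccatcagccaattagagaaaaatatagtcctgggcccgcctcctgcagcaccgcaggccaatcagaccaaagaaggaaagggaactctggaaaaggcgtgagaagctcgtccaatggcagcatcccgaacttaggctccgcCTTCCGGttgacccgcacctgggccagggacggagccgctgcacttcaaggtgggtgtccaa
Ndufa5: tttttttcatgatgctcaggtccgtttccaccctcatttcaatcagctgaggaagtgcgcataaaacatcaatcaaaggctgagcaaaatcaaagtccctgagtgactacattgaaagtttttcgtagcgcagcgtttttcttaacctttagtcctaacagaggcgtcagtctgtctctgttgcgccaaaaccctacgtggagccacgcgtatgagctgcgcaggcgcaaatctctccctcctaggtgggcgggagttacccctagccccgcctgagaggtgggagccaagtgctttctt
Sdhb held a match to each motif, Sdhd held 2 matches to CCGGAAG, Ndufs8 held 1, and the windows of Sdha, Sdhc and Ndufa5 held neither motif.

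Levels of the members moved within narrow limits across the 5 groups, and much of that movement separated replicates of the same group. The summed level of the 94 members was 10285 and 10943 CPM in OPC anti-miR-ctl, 13252 and 11586 in OPC anti-miR-145, 12604 and 12256 in OL miR-ctl, 14596 and 11564 in OL miR-145, and 13414 and 11908 in OL miR-145+miR-219. The 2 OPC control libraries were the lowest, and replicate 1 of OL miR-145 was the highest while its replicate 2 lay below both OL controls. Of the 91 members at 1 CPM or more, 53 had their highest value of the 10 libraries in replicate 1 of OL miR-145, and 51 had their lowest in replicate 1 of OPC anti-miR-ctl. OPC anti-miR-ctl had the lowest mean of the 5 groups for 62 of the 91.

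Replicate 1 of OL miR-145 exceeded replicate 2 in 90 of the 91 members, by a median of 0.34 on the log2 scale. The same held in OPC anti-miR-145 for 87 members (median 0.23), and in OL miR-145+miR-219 for 78 (median 0.17). The OL miR-ctl replicates were close, with 52 members higher in replicate 1 and a median of 0.013. In OPC anti-miR-ctl the order was the other way, with 75 members higher in replicate 2 and a median of -0.10. Over all 13335 genes at 1 CPM or more the median gap between replicates lay between 0.0013 and 0.022 in size. Genes of mitochondrial ribosomal proteins shared it, with 70 of 74 higher in replicate 1 of OL miR-145 and 72 of 74 in replicate 1 of OPC anti-miR-145, as did genes of cytosolic ribosomal proteins, with 98 and 105 of 110.

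**Figure D1:**
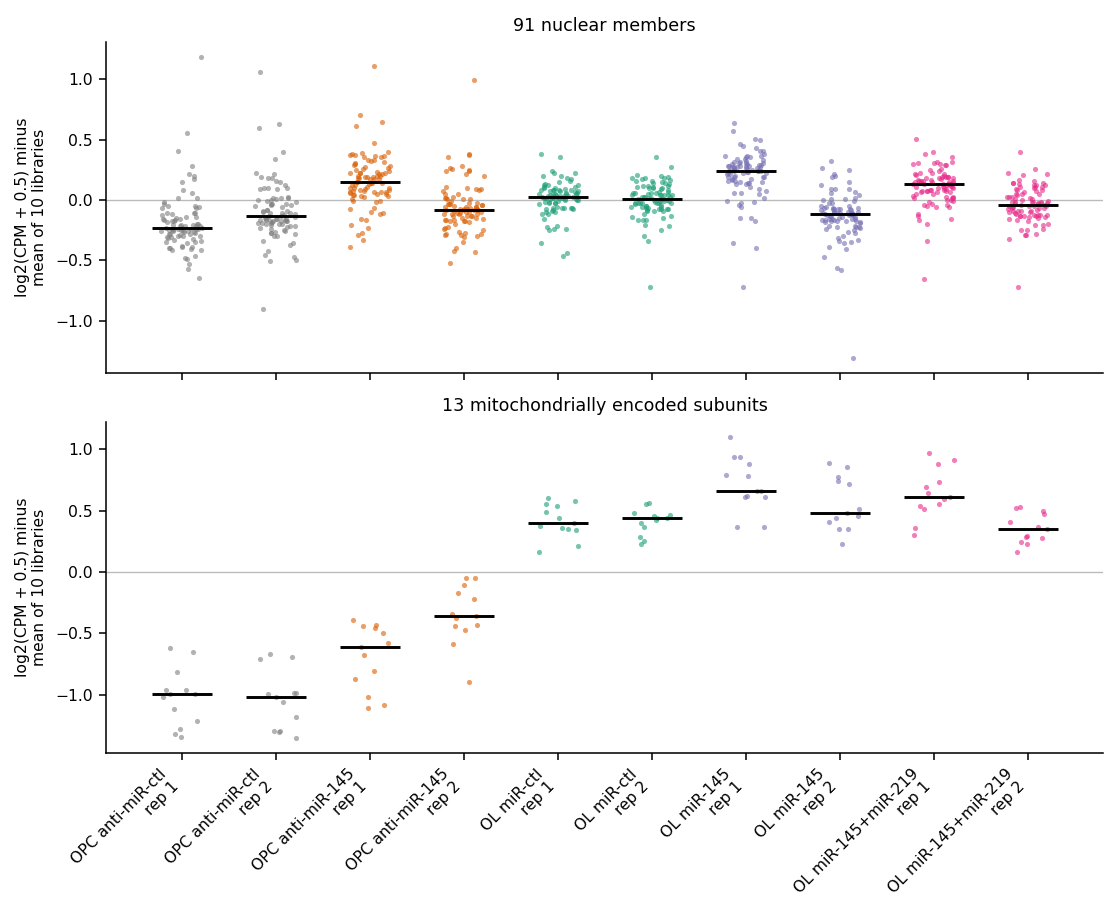
Log2(CPM + 0.5) of each gene minus its mean over the 10 libraries (vertical axis) by library (horizontal axis), for 91 nuclear members (top) and 13 mitochondrially encoded subunits (bottom); each point is a gene and black bars are medians. Replicates 1 and 2 of OL miR-145 lie on opposite sides of the mean for the nuclear members, with medians of 0.24 and -0.11, whereas the mitochondrially encoded subunits separate the OPC from the OL libraries.

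The first comparison asked how the miR-145 mimic changed OLs. No member was called in OL miR-145 against OL miR-ctl by edgeR without a replicate block or by DESeq2. Among all 15461 genes tested, 0% were called by edgeR in either direction, 13.4% had an unadjusted p under 0.05 and DESeq2 called 4.2%, whereas 0 of the 93 members tested had an unadjusted p under 0.05. The median member difference was 0.058 on the log2 scale, with 67 of 93 above 0, beside a median of -0.011 over all genes. The groups did not overlap for 10 members that were higher and 8 that were lower with miR-145, where 22.9% and 24.4% of all genes did so. The median difference between the groups over the 91 members, 0.086, was smaller than the gap of 0.34 between the miR-145 replicates. Without replicate 1 of OL miR-145 the median turned to -0.12, and without its replicate 2 it was 0.22. Markers of other cell types differed between these libraries as well. The 6 astrocyte markers all lay above 0 and summed to 12656 and 8577 CPM in replicates 1 and 2 of OL miR-145, against 6144 and 5196 in OL miR-ctl. The 9 microglia markers also all lay above 0 (median 0.61), with sums of 331.2 and 876.4 against 352.3 and 530.7 CPM, and the 9 markers of maturing OLs had a median of -0.23, with sums of 15504 and 24895 against 16874 and 30987 CPM. All 5 fibroblast or mural cell markers tested were higher at an unadjusted edgeR p under 0.05 (median 2.57). The 6 of these markers with a name entry summed to 50.51 and 85.33 against 30.68 and 20.97 CPM. Between the miR-145 replicates, the astrocyte sum was higher in replicate 1, as the members were, and the other 3 sums were higher in replicate 2. No marker list had a call by edgeR, and their part in the member levels was not tested.

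Members with non-overlapping groups are given with their values although none was called in that fit. Ndufs1, the largest iron-sulfur subunit of complex I, stood at 184 and 171 CPM in OL miR-ctl and at 232 and 200 in OL miR-145, a difference of 0.29 ± 0.13 (edgeR adjusted p = 0.399). Ndufv1, which binds the flavin that accepts electrons from NADH, stood at 152 and 151 CPM in the controls and at 203 and 164 with miR-145, a difference of 0.28 ± 0.14 (edgeR adjusted p = 0.434). Sdhc, a membrane anchor of complex II, stood at 322 and 318 against 422 and 341 CPM. All 3 were higher in both miR-145 libraries, and in each the spread between the miR-145 libraries was wider than that between the controls. In the other direction, both IDs named Atp5md, a small membrane subunit of ATP synthase, were lower. The ID ENSRNOG00000042869 stood at 38.3 and 34.6 CPM in the controls and at 30.9 and 22.8 with miR-145, a difference of -0.43 ± 0.18 (edgeR adjusted p = 0.38). The ID ENSRNOG00000020296 stood at 25.0 and 20.7 against 18.9 and 15.0 CPM. Both pair with a pseudogene in RefSeq, so they may not be independent of each other.

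With miR-219 added, the members were again not called. In OL miR-145+miR-219 against OL miR-ctl, 0 of 94 members were called by edgeR or by DESeq2, and 1 had an unadjusted p under 0.05. Among all 15436 genes, edgeR called 0%, 6.19% had an unadjusted p under 0.05, and DESeq2 called 0.687%. The median member difference was 0.028. Groups did not overlap for 10 members that were higher and 6 that were lower, where 17.2% and 19.5% of all genes did so. The member with the smallest p was the Ndufv3 ID ENSRNOG00000027593, a pseudogene in RefSeq, at 19.5 and 21.3 CPM in the controls and 26.4 and 24.5 with both mimics (0.33 ± 0.12, edgeR adjusted p = 0.801). In OL miR-145+miR-219 against OL miR-145, 0 of 93 members were called by edgeR or by DESeq2 and 0 had an unadjusted p under 0.05. Over all 15501 genes, edgeR called 0%, 1.47% had an unadjusted p under 0.05 and DESeq2 called 0.0581%. Groups did not overlap for 4 members that were higher and 1 that was lower, where 13.2% and 11.6% of all genes did so. The median member difference was -0.025, and leaving out a library moved it between -0.19 and 0.14. The 3 OL comparisons share their libraries in pairs, so they are no independent repeats of each other.

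**Figure D2:**
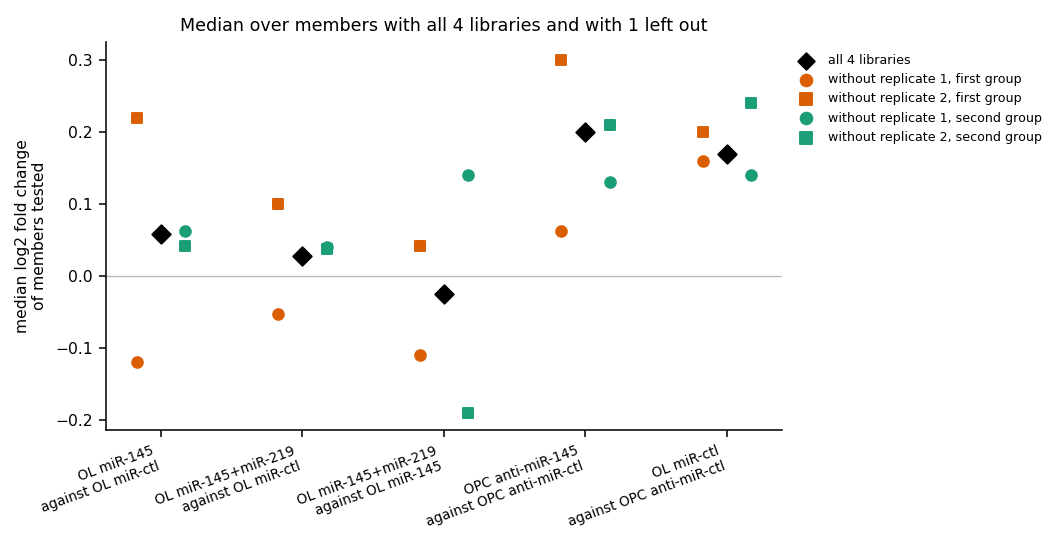
Median log2 fold change over the members tested (vertical axis) for each of 5 comparisons (horizontal axis), with all 4 libraries (diamonds) and with 1 library left out (circles without replicate 1, squares without replicate 2; orange for the first group named, green for the second). The median of OL miR-145 against OL miR-ctl runs from -0.12 to 0.22, and those of the 2 comparisons on the right stay above 0, from 0.062 to 0.30 and from 0.14 to 0.24.

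The fourth comparison asked what blocking miR-145 did in OPCs. The members leaned upward when miR-145 was blocked, at a median difference of 0.20 and 80 of 93 above 0, beside a median of 0.0045 over all genes. The lean was not particular to them. Mitochondrial ribosomal protein genes had the same median, 0.20, with 63 of 75 above 0. Cytosolic ribosomal protein genes had a median of 0.35, with 106 of 117 above 0. Few passed the test: 9 were called higher and 1 lower. Among all 15496 genes, 12.1% were called higher and 16% lower, so the share of members called higher, 9.68%, was not above that background. Groups did not overlap for 58 members that were higher and 5 that were lower, where 35.9% and 32.7% of all genes did so. With libraries scaled by their total counts alone, 5 members were called higher and 2 lower and the median was 0.12. The number of calls changed with the libraries used: without replicate 2 of OPC anti-miR-145, 67 members were called higher and 1 lower, where 22.5% and 23.5% of all genes were. Without its replicate 1, 10 and 3 members were called, where 15.9% and 18.4% of all genes were. Without either control library 0 members were called, where 4.94% and 4.83% of all genes were called higher and 10.7% and 11.5% lower. Without replicate 1 of OPC anti-miR-145 the median was 0.062. Microglia markers moved with this comparison, with 5 of 9 called higher and 3 lower and sums of 872.1 and 827 CPM in the controls and 1003 and 814.2 with anti-miR-145, and astrocyte markers summed to 626.8 and 598.9 against 395.9 and 433 CPM, although 4 of the 6 lay above 0 (median 0.31), with 1 called higher and 2 lower. Their part in the member levels was not tested.

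In complex I, 3 of 38 IDs were called higher and 1 lower with anti-miR-145, where 12.1% and 16% of all genes were. Ndufs8, an iron-sulfur subunit of the arm that carries electrons to ubiquinone, stood at 53.9 and 53.8 CPM in OPC anti-miR-ctl and 75.7 and 66.7 in OPC anti-miR-145, and rose by 0.39 ± 0.097 (edgeR adjusted p = 0.0249). The Ndufv3 ID ENSRNOG00000027593 stood at 11.6 and 9.63 against 16.4 and 13.7 CPM, whereas the protein-coding Ndufv3 ID ENSRNOG00000001182 stood at 33.6 and 35 against 39.6 and 36.0 CPM and was not called (edgeR adjusted p = 0.369). Ndufa5, an accessory subunit, was the exception in direction. It stood at 82.1 and 86.5 CPM in the controls and at 69.1 and 56.6 with anti-miR-145, and fell by 0.44 on the log2 scale (SE 0.12, edgeR adjusted p = 0.032). Among assembly factors, Ndufaf7, a methyltransferase of mitochondria, rose from 22.1 and 24.9 CPM to 30.0 and 30.4 (0.35 ± 0.099, edgeR adjusted p = 0.0398).

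All 17 ATP synthase IDs lay above 0 with anti-miR-145, with a median of 0.25. Of them 5 were called higher, where 12.1% of all genes were. With libraries scaled by total counts, 16 lay above 0 and 3 were called higher, where 8.91% of all genes were. Atp5f1a, the alpha subunit of the catalytic head, stood at 912 and 941 CPM in the controls and at 1215 and 1137 with anti-miR-145 (0.33 ± 0.086, edgeR adjusted p = 0.0294). Atp5f1d, the delta subunit of the central stalk, stood at 136 and 138 against 208 and 169 CPM (0.45 ± 0.12, edgeR adjusted p = 0.0294). Atp5mc2, which with Atp5mc1 and Atp5mc3 encodes the c subunit of the rotating ring, stood at 292 and 282 against 401 and 352 CPM (0.38 ± 0.097, edgeR adjusted p = 0.0279). The other called IDs were the pair named Atp5md, at 35.8 and 34.9 against 44.1 and 44.8 CPM and at 20.1 and 20.2 against 27.2 and 25.1 CPM. Atp5f1b, the beta subunit, stood at 1161 and 1206 against 1491 and 1353 CPM and was not called (edgeR adjusted p = 0.0836). Complexes II, III and IV held no called member. Sdhd lay below 0, unlike the rest of complex II, at 102 and 110 CPM in the controls and 96.3 and 87.7 with anti-miR-145 (-0.22 ± 0.094, edgeR adjusted p = 0.121), and it was called lower once libraries were scaled by total counts. Each of the 10 called members lost its call in at least 3 of 12 alternatives, those without a control library among them.

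The fifth comparison set OL miR-ctl against OPC anti-miR-ctl, which joins the stage of the cells with the kind of control oligonucleotide, the medium and the time after transfection. These cannot be told apart. Markers moved widely across it: the 9 markers of maturing OLs summed to 1236 and 1318 CPM in OPC anti-miR-ctl and to 16874 and 30987 in OL miR-ctl, the 6 astrocyte markers to 626.8 and 598.9 against 6144 and 5196, the 4 progenitor markers at 1 CPM or more to 3773 and 3697 against 1986 and 1378, and the 9 microglia markers to 872.1 and 827 against 352.3 and 530.7. None of these was at 0 in any library. The sums hide markers that went the other way. Of the 4 progenitor markers, 1 was called higher and 3 lower. Of the 9 microglia markers, 5 lay above 0 (median 0.19), 0 were called higher and 4 lower. Among all genes 28.8% were called higher and 28.7% lower. The part of these markers in the member levels was not tested.

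In OLs 33 members were called higher and 9 lower than in OPCs. Among all 15721 genes, 28.8% were called higher and 28.7% lower, beside 35.5% of members called higher. The higher share of members did not hold in every alternative: it was 26.9% beside 26.6% of all genes with DESeq2, 17.2% beside 24% with total counts, 17% beside 27.5% with all 10 libraries in 1 fit, and 25.8% beside 27.1% with a replicate block. The median member difference was 0.17, beside 0.0072 over all genes. Groups did not overlap for 64 members that were higher and 14 that were lower, where 41.7% and 40.1% of all genes did so. Scaled by total counts alone, the median of all genes itself shifted to -0.12, the member median was 0.044, and 16 members were called higher and 11 lower. The difference between the median of the members and that of all genes was 0.17 under either scaling. It could hardly differ, since a scaling shifts all genes by nearly the same amount, so it is no check on the scaling. The counts also changed with the OPC control libraries, with 4 called higher and 3 lower without its replicate 1, and 7 and 3 without its replicate 2, where 15.3% and 15.1% of all genes were called higher. Across the tests, 7 IDs stayed called in all 11 alternatives: Sdhc, Sdha and both Ndufv3 IDs, which were higher, and Ndufa5, Atp5if1 and Cox6b2, which were lower.

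Complex II was the complex with every member called, where 28.8% of all genes were called higher. All 4 were higher in OLs under each scaling. Sdhc, a membrane anchor, stood at 190 and 199 CPM in OPC anti-miR-ctl and at 322 and 318 in OL miR-ctl, 1.63-fold higher (0.71 ± 0.075, edgeR adjusted p = 0.00114). Sdha, the flavoprotein that oxidises succinate, stood at 155 and 151 against 245 and 238 CPM (0.65 ± 0.073, edgeR adjusted p = 0.00135). Sdhd, the other anchor, stood at 102 and 110 against 162 and 153 CPM (0.56 ± 0.082, edgeR adjusted p = 0.00339). It kept its call in 10 of 11 alternatives. Sdhb, the iron-sulfur subunit that links the flavin to ubiquinone, differed less, at 146 and 149 against 171 and 190 CPM (0.27 ± 0.085, edgeR adjusted p = 0.0405). It kept its call in 6 of 11 alternatives. Those that lost it included total counts, all 10 libraries in 1 fit and a replicate block. For each of the 4, both OL control libraries lay above both OPC control libraries. In OL miR-145 all 4 likewise lay above both OPC control libraries, at 422 and 341 CPM for Sdhc, 288 and 245 for Sdha, 153 and 132 for Sdhd and 188 and 161 for Sdhb.

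**Figure D3:**
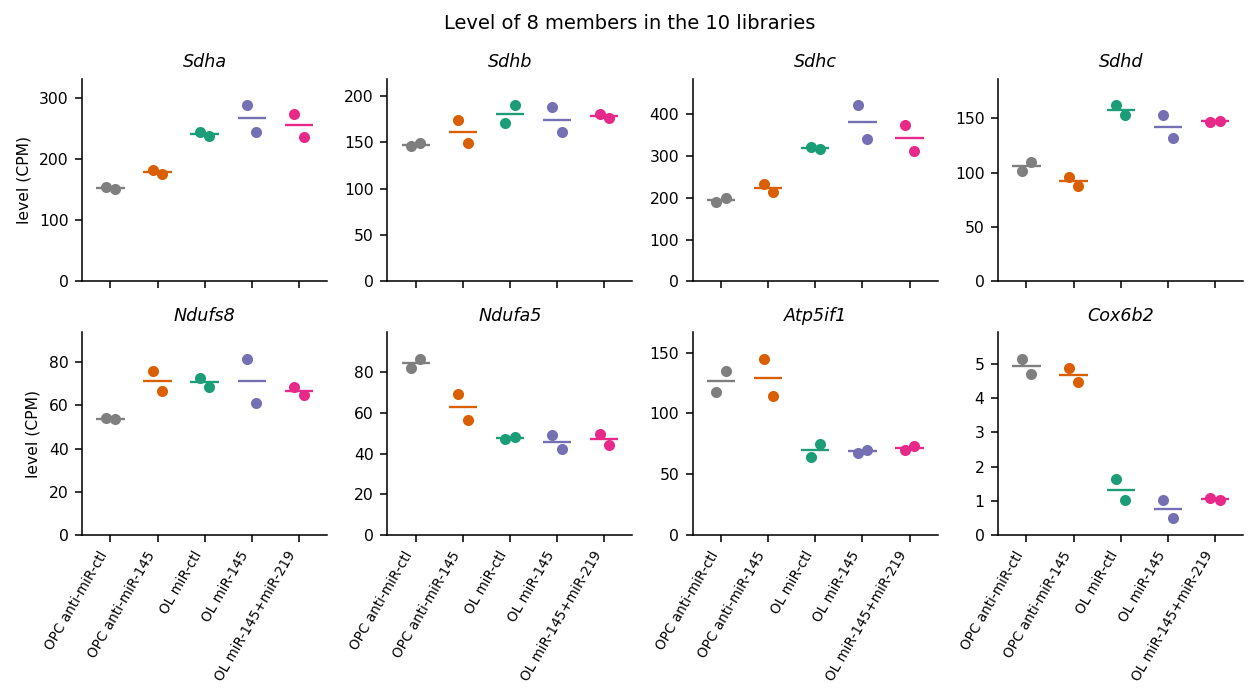
Level in CPM (vertical axis, from 0) of 8 members in each of the 10 libraries, grouped along the horizontal axis; points are libraries and bars are means of 2. The 4 Sdh genes are higher in OL miR-ctl than in OPC anti-miR-ctl, Ndufa5, Atp5if1 and Cox6b2 are lower, and Ndufs8 stands at 53.9 and 53.8 CPM in OPC anti-miR-ctl and at 61.2 CPM or more in all other libraries.

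Complex I was mixed in direction, with 14 of 38 IDs called higher and 3 lower, where 28.8% and 28.7% of all genes were. Of its 7 core subunits encoded in the nucleus, 4 were called higher and none lower, and all 7 lay above 0. Ndufv1 stood at 103 and 107 CPM in OPCs and at 152 and 151 in OLs (0.52 ± 0.071, edgeR adjusted p = 0.00274). Ndufs8 stood at 53.9 and 53.8 against 72.8 and 68.6 CPM (0.38 ± 0.077, edgeR adjusted p = 0.01). Ndufs1 (148 and 156 against 184 and 171 CPM) and Ndufs7 (49.9 and 49.7 against 56.1 and 65.9 CPM) did not overlap but missed the threshold, as did Ndufv2. The largest rise among accessory subunits was that of Ndufv3, at 33.6 and 35 against 56.0 and 62.5 CPM for the protein-coding ID (0.77 ± 0.093, edgeR adjusted p = 0.00169) and at 11.6 and 9.63 against 19.5 and 21.3 CPM for the other.

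Ndufa5 had the smallest p of all members and the opposite direction. It stood at 82.1 and 86.5 CPM in OPCs and at 47.2 and 47.9 in OLs, and fell by 0.84 on the log2 scale (SE 0.076, edgeR adjusted p = 0.000674). In the mimic-treated OLs it stayed at 49.2 and 42.0 CPM with miR-145 and 49.7 and 44.3 with both mimics. Ndufb4, an accessory subunit of the membrane arm, stood at 98.4 and 111 against 82.2 and 78.8 CPM (-0.39 ± 0.09, edgeR adjusted p = 0.0152), and Ndufab1, the mitochondrial acyl carrier protein, was also called lower, at 55.5 and 55.6 against 46.8 and 39.4 CPM. The 8 assembly factors split, with Ndufaf1 and Ndufaf7 called higher and Ndufaf2, Ndufaf5 and Ndufaf8 called lower. Ndufaf5, which hydroxylates a core subunit, stood at 22 and 24.1 against 14.7 and 17.4 CPM, and its partner Ndufaf8 at 14.5 and 14.4 against 9.34 and 11.4 CPM. Ndufaf2, a late assembly factor, stood at 10.3 and 11.2 against 7.46 and 7.42 CPM (-0.54 ± 0.13, edgeR adjusted p = 0.0171).

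In complex III, 4 of 9 IDs were called higher and none lower. Here 28.8% of all genes were called higher and 28.7% lower, and with total counts 24% and 33.9%. Uqcrc2 and Uqcrc1, the large core proteins, stood at 196 and 201 against 285 and 261 CPM (0.45 ± 0.082, edgeR adjusted p = 0.00714) and at 176 and 187 against 227 and 232 CPM (0.33 ± 0.077, edgeR adjusted p = 0.0168). Uqcrfs1, the Rieske iron-sulfur protein, stood at 137 and 143 against 166 and 144 CPM and was not called. With total counts 2 complex III members were called and 6 of 9 lay above 0, where 8 lay above 0 with TMM. In complex IV, 7 of 13 were called higher and 1 lower, and with total counts 3 and 3. Cox6c stood at 117 and 128 against 202 and 177 CPM, and Cox8a at 174 and 176 against 266 and 230 (0.49 ± 0.096, edgeR adjusted p = 0.00911). In ATP synthase, 2 of 17 were called higher and none lower, with a median of 0.15, and with total counts 1 was called and 11 lay above 0. Those 2 were Atp5f1b, at 1161 and 1206 against 1518 and 1430 CPM (0.30 ± 0.083, edgeR adjusted p = 0.0274), and Atp5pd of the peripheral stalk, at 170 and 187 against 235 and 236 CPM.

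The inhibitor Atp5if1, which blocks hydrolysis of ATP by the synthase, did not follow the subunits. It stood at 118 and 135 CPM in OPC anti-miR-ctl, a mean of 130.0 ± 22.2 (SD, n = 2) in OPC anti-miR-145, 64.4 and 75.0 in OL miR-ctl, 67.4 and 70.1 in OL miR-145 and 70.3 and 73.1 in OL miR-145+miR-219. All 4 OPC libraries lay above all 6 OL libraries. In the controls the level in OLs was 0.545 times that in OPCs (-0.88 ± 0.12, edgeR adjusted p = 0.00231).

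**Figure D4:**
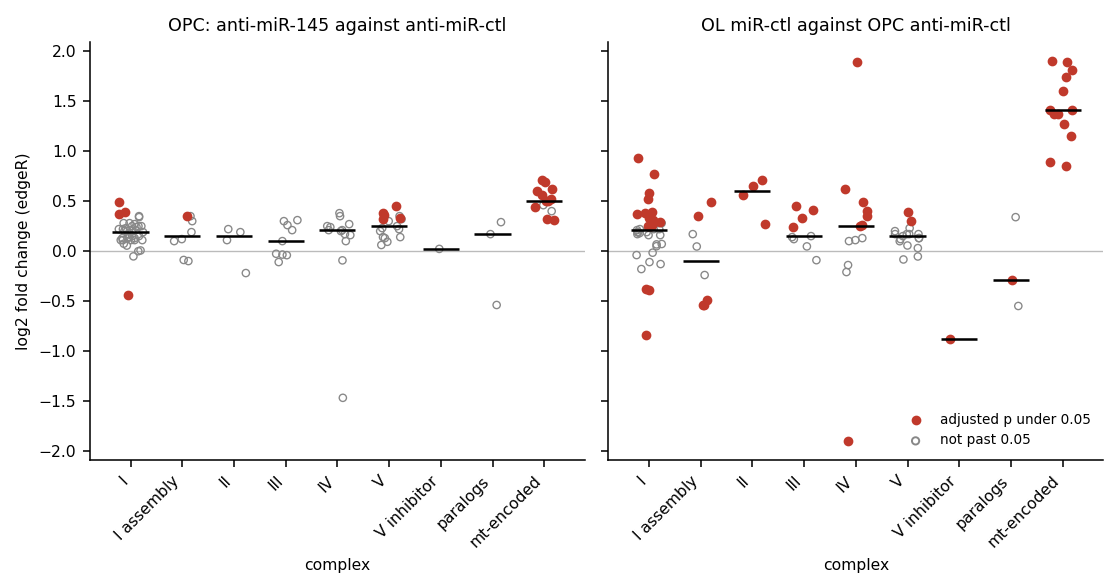
Log2 fold change of each member (vertical axis) by complex (horizontal axis) for OPC anti-miR-145 against OPC anti-miR-ctl (left) and OL miR-ctl against OPC anti-miR-ctl (right); filled red points have an edgeR adjusted p under 0.05, open points do not, and bars are medians. On the right all 4 complex II members are filled with a median of 0.60, ATP synthase has a median of 0.15, and the 13 mitochondrially encoded subunits have medians of 0.50 on the left and 1.41 on the right.

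Several subunits have paralogs with tissue-restricted use, and these were compared with their common partners within each gene. Cox4i1, the common isoform of a regulatory subunit of complex IV, stood at 244 and 261 CPM in OPC controls and 306 and 298 in OL controls (0.25 ± 0.079, edgeR adjusted p = 0.0455). Cox4i2, known as an isoform induced under low oxygen, had 6 and 5 counts in the OPC controls, 3 and 1 with anti-miR-145, 21 and 17 in the OL controls, 3 and 15 with miR-145 and 8 and 20 with both mimics. Its call in OLs against OPCs (1.89 ± 0.41, edgeR adjusted p = 0.013) rests on those few counts, and DESeq2 did not call it. Cox6b2, known from testis, stood at 5.15 and 4.71 CPM in OPC controls, 4.88 and 4.46 with anti-miR-145, 1.63 and 1.01 in OL controls, 1.01 and 0.505 with miR-145 and 1.08 and 1.01 with both mimics. It fell by 1.90 on the log2 scale in OL against OPC controls (SE 0.28, edgeR adjusted p = 0.00341), while the protein-coding ID of the common form Cox6b1 (ENSRNOG00000024309) stood at 95 and 106 against 108 and 111 CPM and was not called.

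Cox5a and Cox5b, which occur together in the enzyme, were both called higher in OL controls, at 111 and 117 against 138 and 137 CPM and at 130 and 149 against 172 and 187 CPM. Cox7a2l, which joins complexes III and IV, was called lower, at 127 and 136 against 103 and 114 CPM (-0.29 ± 0.089, edgeR adjusted p = 0.037). Cox6a1, the common isoform, stood at 244 and 253 against 270 and 267 CPM and was not called. Its muscle isoform Cox6a2 had between 0 and 9 counts per library and was not tested in this comparison. It was tested only in OL miR-145+miR-219 against OL miR-ctl, where it was not called. Ndufa4, a subunit now placed in complex IV, stood at 203 and 220 against 202 and 185 CPM, and Ndufa4l2, its paralog known from hypoxia, had between 5 and 17 counts per library. None of the 3 genes of the c subunit was called in this comparison. Atp5mc1 stood at 60.9 and 67.0 against 75.8 and 69.5 CPM and Atp5mc3 at 144 and 154 against 171 and 158. In each of these the groups did not overlap on the higher side, where 41.7% of all genes did so. Atp5mc2 overlapped, at 292 and 282 against 290 and 257. Cox7a1, Cox7a2 and Cox8b were not analysed here.

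There were 5 member IDs called in 2 of the 5 comparisons, the most for any. Among them, Ndufs8, Ndufaf7 and Ndufv3 (ENSRNOG00000027593) were higher and Ndufa5 lower in both OPC anti-miR-145 and OL miR-ctl, each set against OPC anti-miR-ctl. Since both comparisons share those 2 control libraries, their likeness is no independent evidence. Of the 94 members, 47 were called in none of the 5.

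Between OL miR-ctl and OPC anti-miR-ctl the nuclear members had a median difference of 0.17. The 13 subunits encoded in mitochondrial DNA, which belong to complexes I, III, IV and V, had a wider one, of 1.41. Their summed level was 14313 and 13986 CPM in OPC anti-miR-ctl, 18051 and 22439 in OPC anti-miR-145, 32975 and 32966 in OL miR-ctl, 38929 and 35951 in OL miR-145 and 36716 and 32878 in OL miR-145+miR-219. All OL libraries lay above all OPC libraries, and both anti-miR-145 libraries lay above both OPC controls. In OL miR-ctl against OPC anti-miR-ctl all 13 were called higher, by 0.85 to 1.90, where 28.8% of all genes were. All 13 were also called higher with total counts, where 24% of all genes were. With any 1 library left out their median ran from 1.38 to 1.42. In OPC anti-miR-145 against its control 11 of 13 were called higher with a median of 0.50, where 12.1% of all genes were. With total counts 6 were called higher, where 8.91% of all genes were. With either control library left out fewer were called, at medians of 0.49 and 0.48. In OL miR-145 against OL miR-ctl none of the 13 was called, where 0% of all genes were. Of the 13, 11 did not overlap on the higher side, where 22.9% of all genes did so. Their median was 0.27.

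The ratio of mitochondrially encoded to nuclear summed CPM was 1.39 and 1.28 in OPC anti-miR-ctl, 1.36 and 1.94 in OPC anti-miR-145, 2.62 and 2.69 in OL miR-ctl, 2.67 and 3.11 in OL miR-145 and 2.74 and 2.76 in OL miR-145+miR-219. It mixes genes of different length and can be read only between libraries. Capture of mitochondrial transcripts by poly(A) selection was not tested. The replicate gap of the nuclear members was not shared in OPC anti-miR-145, where all 13 mitochondrially encoded subunits were higher in replicate 2, by a median of 0.34, and 87 of 91 nuclear members were higher in replicate 1.

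**Figure D5:**
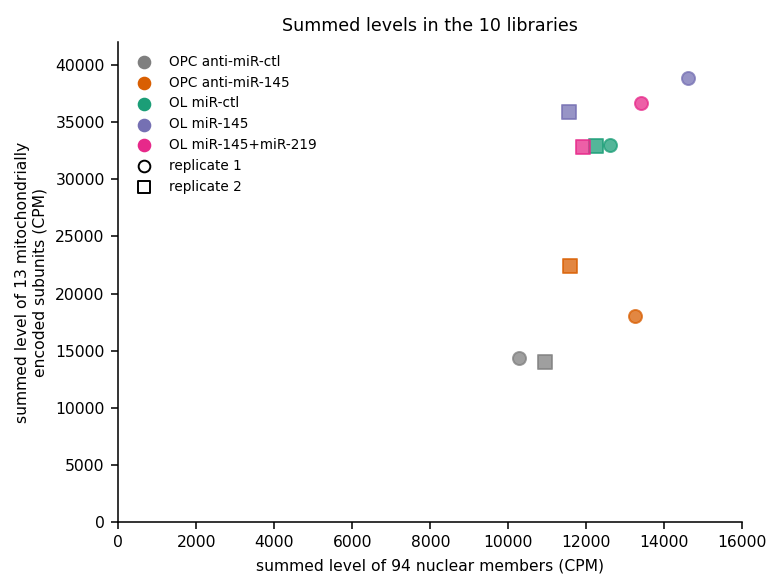
Summed level in CPM of 13 mitochondrially encoded subunits (vertical axis) against that of the 94 nuclear members (horizontal axis) in the 10 libraries; colours are groups, circles replicate 1 and squares replicate 2. The vertical axis separates OPC libraries (13986 to 22439 CPM) from OL libraries (32878 to 38929 CPM), whereas on the horizontal axis the stages overlap.

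Related genes were counted from fixed lists in the same fits. In those fits 28.8% of all genes were called higher and 28.7% lower in OL against OPC controls, and 12.1% and 16% with anti-miR-145. Of 39 assembly factors outside the member rule, 17 were called higher and 4 lower in OL against OPC controls with a median of 0.26, and 9 were called higher and none lower with anti-miR-145. Of 17 genes of the citric acid cycle and pyruvate dehydrogenase, 11 were called higher and 2 lower in OL controls with a median of 0.29. The 2 lower were Fh, fumarase, at a mean of 150.0 against 58.7 CPM, and Idh2, at 103 against 64.0 CPM. Fh was also called lower with anti-miR-145 (-0.68, edgeR adjusted p = 0.00341).

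Of 13 regulators of mitochondrial gene expression, 3 were called higher and 4 lower in OL controls. Ppargc1a, a coactivator of mitochondrial genes, stood at a mean of 3.61 against 14.6 CPM (2.01, edgeR adjusted p = 0.00482) and Ppargc1b at 1.17 against 3.49 CPM, while Polg, the mitochondrial DNA polymerase, fell from a mean of 315 to 82.7 CPM (-1.94, edgeR adjusted p = 8.65e-05). Nrf1 stood at 37.7 against 26.9 CPM and was called lower, as were Esrra and Gabpb1, while Twnk was called higher. Gabpa, which encodes the factor that binds the ETS core, stood at 75.0 against 76.1 CPM and was not called. Of 12 genes of the response to low oxygen, 8 were called higher and 2 lower in OL controls. Cytosolic ribosomal protein genes went the other way from the members, with 100 of 115 called lower and 2 higher and a median of -0.63, and mitochondrial ribosomal protein genes showed no common direction, with 15 called higher and 15 lower of 75. With anti-miR-145, 38 of 117 cytosolic ribosomal protein genes were called higher and 1 lower, and 11 of 75 mitochondrial ones were called higher and none lower.

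Member promoters with the motifs searched were counted by call in OL against OPC controls as a description. CCGGAAG was in 10 of 26 promoters of members called higher (38.5%) and in 1 of 9 of members called lower (11.1%), and GCATGCGC was in 2 of 26 (7.69%) and 1 of 9. These counts are small and no test was made of them.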

How the data were processed

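RNA of 10 libraries (5 groups of 2) was sequenced by the authors as stranded poly(A) libraries. The deposited estimated counts per gene were made by the authors with Salmon 0.12.0 on a rat Rnor6.0 annotation and tximport; 16 to 17.5% of the values per library were not whole, and all were rounded here. Totals and the spread of 2 libraries per group set the precision, and no lengths were used, so levels are compared between libraries and not between genes. The deposited table of the authors' own comparison holds mean normalized counts, log2 fold changes, their errors, a test statistic, p-values and adjusted p-values; only its gene names were used.

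For each comparison, genes reaching 5 counts in 2 or more of its 4 libraries were tested with edgeR 4.0.16 (TMM, quasi-likelihood F test, R 4.3.3), with Benjamini-Hochberg adjustment over all genes tested and a threshold of 0.05. The SE is the size of the log2 fold change over the square root of F. Scripts were tested on simulated counts with 200 changed genes per comparison. Of these, edgeR recovered 135, 135, 128, 175 and 159 in the 5 comparisons in the order reported. It made 12, 13, 15, 26 and 25 false calls. The simulated log2 changes were 1 or 2 in size, larger than most member differences, so these recoveries do not apply to the members. Alternatives were DESeq2 1.42.0, other scalings and filters, 1 fit of all 10 libraries, a replicate block, a stricter list of 76 members and leaving out each library. Named genes were fixed catalytic and isoform genes, the 5 higher and 5 lower non-overlapping members with the smallest p per comparison, and those called most often. Members and lists were chosen with earlier results of these data known. Sequences are from RefSeq (GRCr8). One member is counted in the totals but its own values are not reported here.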

Additional observations from a re-analysis of the deposited data

How the results depend on the processing

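The 2 libraries per group limit every call. In OPC anti-miR-145 against its control, 10 members were called, 6 of the stricter list, 1 with all 10 libraries in 1 fit and 0 to 68 with a library left out, where the median ran from 0.062 to 0.30; the higher end was without replicate 2 of OPC anti-miR-145 and the lower end of the calls without either control. In OL miR-ctl against OPC anti-miR-ctl, 42 were called, 27 with total counts (median 0.044), 23 with all 10 libraries in 1 fit and 7 to 56 with a library left out, where the median ran from 0.14 to 0.24. In OL miR-145+miR-219 against OL miR-145, 5 members did not overlap, where 13.2% of all genes did so higher and 11.6% lower. With DESeq2's size factors 3 did not, and the share of all genes was not counted. DESeq2 called 14 members with anti-miR-145 and 34 in OL against OPC controls. It called 11.8% of all genes higher and 14.6% lower in the first, and 26.6% and 26.7% in the second. In the main fits these shares were 12.1% and 16%, and 28.8% and 28.7%. With all 10 libraries in 1 fit they were 6.74% and 8.89%, and 27.5% and 26%. With total counts, 24% and 33.9% of all genes were called in OL against OPC controls. With a library left out, the lone library of its group is assumed to vary like the other group. Called members, and the non-overlapping members named for the smallest p, kept their direction under the alternatives run. Fixed genes that were not called did not always. With anti-miR-145, Atp5if1 lay at 0.022 in the main fit and at -0.053 with total counts. The causes were not tested.

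Same-numbered libraries share only a number in the labels. Deviations from the group means correlated at 0.404, 0.468, 0.631, -0.152 and 0.0668 in the 5 comparisons in the order reported. With the replicate number as a block, 2 members were called in OL miR-145 against OL miR-ctl, where 10% of all genes were called higher and 4.7% lower: both Atp5md IDs, at -0.45 and -0.43. With the block, 4 were called higher and 1 lower with anti-miR-145 (5 in all; 10.2% and 15.4% of all genes), and 24 higher and 9 lower in OL against OPC controls (33 in all; 27.1% and 27.2%). With the numbers crossed, an alternative added after seeing the data, 29 were called with anti-miR-145, 28 of them higher, where 16.5% of all genes were.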
